A study of Bos taurus with 28 samples.

Results

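The antioxidant and glutathione genes of the liver were compared between ketotic and healthy dairy cows. They were taken from the platform annotation by gene symbol alone: glutathione transferases (GST and MGST), glutathione peroxidases (GPX), peroxiredoxins (PRDX), thioredoxins, glutaredoxins and their reductases, superoxide dismutases, catalase, the enzymes that make and reduce glutathione, KEAP1, haem oxygenases, NQO1, a metallothionein, a ferritin chain, selenoproteins and methionine sulfoxide reductases. The symbols matched 55 of the 8073 genes that the array names with a single symbol. Of these, 52 had a value in at least 5 cows of each group and were tested among 6958 genes in all. The other 3, GSTA5, MGST2 and PRDX3, are described by their values.

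Liver RNA of 14 multiparous Holstein cows was hybridised to 28 spotted arrays, 2 per cow with the dyes exchanged, against a reference RNA pooled from cattle tissues. All cows were judged healthy on examination at day 4 after calving and were assigned at random. The 7 healthy cows were sampled in the early postpartum period on free access to feed, and the 7 ketotic cows were given 50% of their day 4 intake from day 5 (day 4 in the sample labels) until clinical signs of ketosis or day 14. Ketosis here is therefore a state brought on by underfeeding, and ketosis and feed restriction cannot be told apart. Each cow counts as 1 replicate, so n is 7 per group unless a smaller number is given, and a cow's number only names it.

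Cells remove hydrogen peroxide and lipid peroxides along parallel thiol routes. Glutathione peroxidases use glutathione, a tripeptide that glutathione reductase restores with NADPH, and peroxiredoxins use thioredoxin, which thioredoxin reductases restore with NADPH. Glutathione transferases attach glutathione to reactive compounds such as the aldehydes formed from oxidised lipids, and liver is a major site of both glutathione synthesis and export. The transcription factor NRF2, held back by KEAP1, drives many of these genes.

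Values are log2 ratios of liver over reference after each array was centred on its median. The direction is called likely, since liver markers lay above muscle markers on 28 of 28 arrays once arrays were turned by the dye named in their titles. The arrays of 1 cow correlated at a median r of 0.673 across probes (range 0.579 to 0.701). A value compares a gene between cows, and no gene's level is set against another gene's. The labels name no hybridisation batch. Each cow's value rests on 2 arrays and each group on at most 7 cows, which limits the precision of every difference here.

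One library stood apart. Healthy cow 7 correlated with the other 13 cows at r between 0.363 and 0.462, while no other pair of cows fell below 0.716. The mean log2 ratio of 7 hepatocyte markers was 3.22 in healthy cow 7, between 5.90 and 7.48 in healthy cows 1 to 6, and between 6.19 and 7.25 in ketotic cows. One of these markers, APOB, had a value in only 5 ketotic cows, so the ketotic means rest in part on fewer markers. The mean of 5 stellate cell markers was 0.76 in that cow, at most -0.49 in the other healthy cows and at most -2.23 in ketotic cows. Results are given with this cow and, where it matters, without it. In bulk liver, fewer cells of a type and less RNA per cell cannot be told apart.

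In ketotic liver 15 of the 52 tested antioxidant and glutathione genes fell and 0 rose. The 15 (limma, Benjamini-Hochberg adjusted p under 0.05 over all 6958 genes, two-sided) were PRDX5, PRDX2, PRDX4, TXN, TXNL4A, GLRX, GLRX3, GLRX5, GSTA4, MGST1, MGST3, NQO1, FTH1, SELENOF and SELENOW. They are 28.8% of the 52 tested, beside 13.4% of all genes called in either direction, 12.4% lower and 0.92% higher. The falls ran from 1.52-fold to 2.65-fold. Of the 52 tested members, 6 were called with a fall of at least 2-fold, beside 182 of all 6958 genes (2.62%). The median difference over the 52 members was -0.44 on the log2 scale, and over all genes it was -0.18. The difference lay below 0 for 39 of the 52 members, beside 67.2% of all genes. With the values as deposited it lay below 0 for 50 of the 52, but the median of all genes was then -0.58. The share of all genes below 0 in that setting was not computed. In 6 members every ketotic cow lay below every healthy cow, beside 5.39% of all genes, and in 0 members did every ketotic cow lie above.

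The roles did not contribute alike to these counts, though differences between roles were not tested. Peroxiredoxins gave 3 of 5 tested, the thioredoxin and glutaredoxin group 5 of 12, microsomal glutathione transferases 2 of 2, and selenoproteins with methionine sulfoxide reductases 2 of 10. Soluble glutathione transferases gave 1 of 6, the KEAP1, HMOX and NQO1 group 1 of 4, and ferritin with metallothionein 1 of 2. Glutathione synthesis and reduction gave 0 of 4, glutathione peroxidases 0 of 4, and superoxide dismutases with catalase 0 of 3. By the unadjusted limma p under 0.05, the last 3 roles held 4 genes: GPX3 with a difference above 0, and GPX1, SOD1 and SOD2 with differences below 0. The share of all genes under that looser threshold was not computed, so no result is read from this count.

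**Figure D1:**
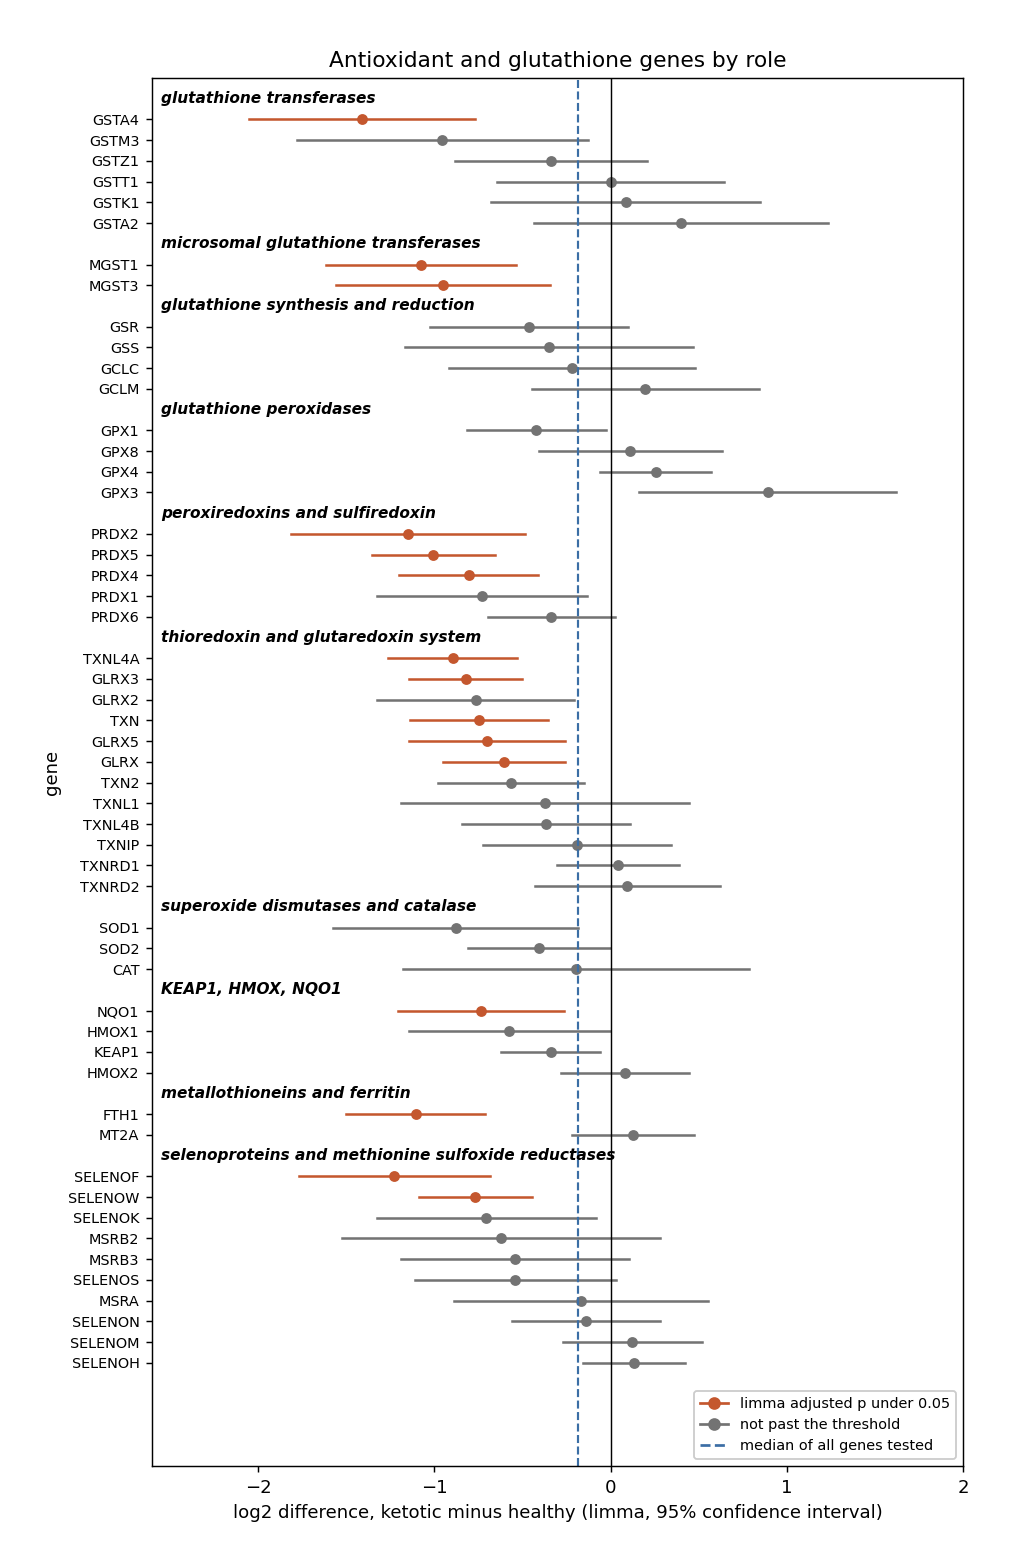
Difference between ketotic and healthy cows for the 52 tested antioxidant and glutathione genes, by role. Points are limma log2 differences (ketotic minus healthy), bars are 95% confidence intervals, orange marks adjusted p under 0.05, and the dashed line is the median of all 6958 genes (-0.18); the 15 orange genes all lie to the left of 0, and GPX3 has the highest difference (0.89).

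All 5 tested peroxiredoxins had lower means in ketotic liver, and 3 of them fell. Peroxiredoxins reduce peroxides through a reactive cysteine. PRDX5 (gene ID 282885), found in mitochondria, peroxisomes and cytosol, ran from 0.22 to 0.72 in healthy cows (median 0.42) and from -1.18 to -0.13 in ketotic cows (median -0.54). The groups did not overlap. PRDX5 fell 2.01-fold, by 1.01 on the log2 scale (SE 0.16, limma adjusted p = 0.00302). PRDX4 (gene ID 281999), the peroxiredoxin of the endoplasmic reticulum, ran from -1.06 to -0.57 in healthy cows (median -0.93) and from -2.53 to -1.16 in ketotic cows (median -1.56). Again every ketotic cow was below every healthy cow, and the fall was 1.75-fold (log2 SE 0.18, limma adjusted p = 0.0123).

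PRDX2 (gene ID 286793), a cytosolic form abundant in red blood cells, had values in 6 healthy cows, from -3.17 to -2.49 (median -2.93). In the 7 ketotic cows it ran from -5.60 to -3.17 (median -3.94). All ketotic cows but 1 were below every healthy cow, and ketotic cow 5 was far below the rest. The fall was 2.22-fold (log2 SE 0.31, limma adjusted p = 0.0263). It did not pass without healthy cow 1 (adjusted p = 0.0549) or without healthy cow 2 (0.0532), and with arrays scaled to one spread the difference was -0.43 (adjusted p = 0.217). None of the 3 red blood cell markers measured was called. Their differences lay above 0: AHSP 0.61 (SE 0.27), SLC4A1 0.28 (SE 0.20) and CA2 0.05 (SE 0.30). The mean log2 ratio of the markers with a value ran from -0.87 to -0.50 in healthy and from -1.32 to 0.14 in ketotic cows. AHSP had a value in only 6 cows of each group, so that mean does not rest on the same markers in every cow. The part of blood in the PRDX2 result was not tested.

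PRDX1, the main cytosolic peroxiredoxin, and PRDX6, which uses glutathione, had differences of -0.73 (SE 0.28, limma adjusted p = 0.0999) and -0.34 (SE 0.17, adjusted p = 0.210). Neither passed. PRDX3, the mitochondrial peroxiredoxin, was measured in 2 healthy cows (1.41 and 1.55) and in 4 ketotic cows (-1.73 to 1.37), and was not tested. All 4 ketotic values lay below both healthy ones.

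The thioredoxin and glutaredoxin group, the largest role with 12 genes tested, held the most genes that fell. Its share was 41.7%, beside 60% of the peroxiredoxins and 2 of 2 microsomal transferases. TXN (gene ID 280950), the cytosolic thioredoxin that hands electrons to peroxiredoxins, ran from -1.31 to -0.21 in healthy cows (median -0.85) and from -2.15 to -1.17 in ketotic cows (median -1.54). The lowest healthy value was that of healthy cow 7, and the other healthy cows, from -0.97 up, were above every ketotic cow. TXN fell 1.68-fold (log2 SE 0.18, limma adjusted p = 0.0170). With arrays scaled to one spread the difference was -0.46 (adjusted p = 0.153), and with quantile normalisation -0.52 (0.105).

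Glutaredoxins reduce mixed disulfides between proteins and glutathione, and some carry iron-sulfur clusters. GLRX3 (gene ID 511528), one of the cluster-binding forms, ran from -0.64 to -0.16 in healthy cows (median -0.49) and from -1.82 to -0.93 in ketotic cows (median -1.29). The groups were fully apart, with a fall of 1.77-fold (log2 SE 0.15, limma adjusted p = 0.00436). GLRX (gene ID 515416), the cytosolic glutaredoxin, ran from 0.54 to 1.08 in healthy cows (median 0.82) and from -0.35 to 0.48 in ketotic cows (median 0.30). It too showed no overlap, and fell 1.52-fold (log2 SE 0.16, limma adjusted p = 0.0245). The GLRX call was lost with arrays centred on common probes (-0.47, adjusted p = 0.0528) and with liver in Cy3 alone (-0.41, adjusted p = 0.126).

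GLRX5 (gene ID 505935), the mitochondrial glutaredoxin of iron-sulfur cluster assembly, ran from -0.42 to 0.73 in healthy cows (median 0.08) and from -0.95 to -0.09 in ketotic cows (median -0.50). The groups overlapped, with 5 of 7 ketotic cows below every healthy cow. The fall was 1.62-fold (log2 SE 0.21, limma adjusted p = 0.0368), and it was the least steady of the group: it failed in 8 of 14 fits that each left out 1 cow (healthy cows 3, 5 and 6, ketotic cows 2 to 6), with adjusted p up to 0.0755. GLRX2, a mitochondrial glutaredoxin, did not pass (-0.77, SE 0.26, limma adjusted p = 0.0668).

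TXNL4A (gene ID 535457) carries a thioredoxin fold but is known as a component of the spliceosome, not as an antioxidant. It ran from -0.87 to -0.47 in healthy cows (median -0.53) and from -2.20 to -1.13 in 6 ketotic cows (median -1.42), with no overlap. The fall was 1.86-fold (log2 SE 0.17, limma adjusted p = 0.00598). Its relative TXNL4B had a difference of -0.37 (SE 0.22, adjusted p = 0.302).

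The other genes of the group gave no call. TXN2, the mitochondrial thioredoxin, differed by -0.57 (SE 0.19, limma adjusted p = 0.0665). TXNIP, which binds and inhibits thioredoxin, differed by -0.19 (95% confidence interval -0.72 to 0.34). The reductases TXNRD1 (cytosol) and TXNRD2 (mitochondria) differed by 0.04 (interval -0.31 to 0.39) and 0.09 (interval -0.43 to 0.62), so a 2-fold fall lies outside both intervals. TXNL1 differed by -0.37 (SE 0.38).

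**Figure D2:**
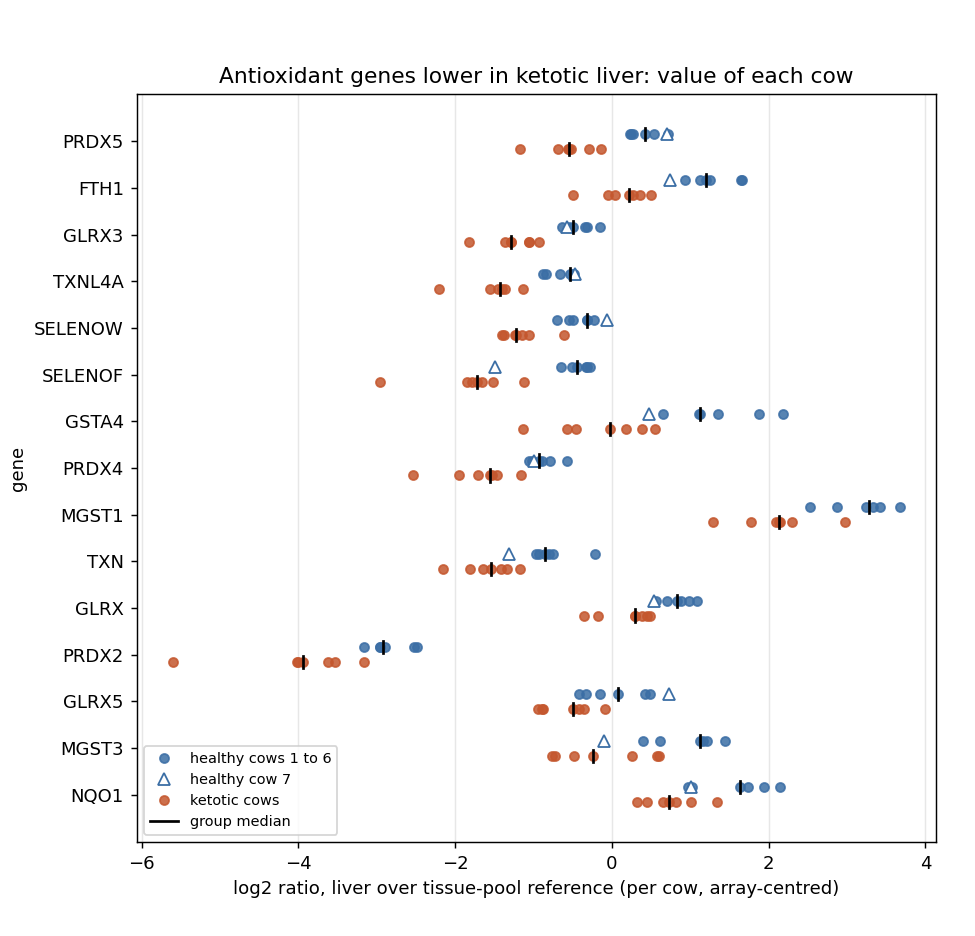
Log2 ratio of liver over tissue-pool reference (each array centred on its median) in each cow for the 15 genes that fell. Circles are healthy cows 1 to 6 (blue) and ketotic cows (orange), open triangles are healthy cow 7, and black ticks are group medians; the groups are fully apart for PRDX5, FTH1, GLRX3, TXNL4A, PRDX4 and GLRX, and MGST1 and PRDX2 have no value in healthy cow 7.

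Among the soluble glutathione transferases only GSTA4 was called. GSTA4 (gene ID 533917), an alpha class enzyme known for conjugating the lipid peroxidation aldehyde hydroxynonenal, ran from 0.47 to 2.18 in healthy cows (median 1.13) and from -1.14 to 0.55 in ketotic cows (median -0.03). The lowest healthy value was that of healthy cow 7, and the other healthy cows, from 0.65 up, lay above every ketotic cow. GSTA4 fell 2.65-fold (log2 SE 0.30, limma adjusted p = 0.00921), the steepest fall of the 52 members by estimate. It passed in each of the 14 leave-one-out fits.

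GSTA2, another alpha class gene, ran from 2.85 to 5.91 in healthy cows (median 5.57) and from 5.07 to 6.11 in ketotic cows (median 5.77). Healthy cow 7 held the 2.85, and the next healthy value was 5.42, so the groups overlapped closely apart from that cow. The difference was 0.40 (SE 0.39, limma adjusted p = 0.549) with it and 0.00033 without it, and was -0.75 (adjusted p = 0.276) with arrays scaled to one spread. The RefSeq table of assembly ARS-UCD2.0 places 5 alpha class genes on 1 chromosome as direct neighbours. Near-identical alpha class transcripts may share a probe, so which gene a probe reads is uncertain. Whether the differences of GSTA4 and GSTA2 differ from each other was not tested.

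GSTM3, a mu class enzyme, ran from 1.77 to 4.68 in healthy cows (median 3.97) and from 2.04 to 3.87 in ketotic cows (median 2.79). The difference of -0.95 (SE 0.39, limma adjusted p = 0.119) became -1.30 (adjusted p = 0.00420) without healthy cow 7, which held the 1.77 while the other healthy cows began at 3.62. GSTZ1, an enzyme of tyrosine breakdown, GSTK1 of mitochondria and peroxisomes and GSTT1 of the theta class had differences between -0.34 and 0.09, none called. GSTA5 was measured in 4 healthy cows (0.11 to 2.22) and 3 ketotic cows (-1.68 to 2.42).

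Both tested microsomal glutathione transferases, which act in membranes, fell. MGST1 (gene ID 493719), of the endoplasmic reticulum and outer mitochondrial membrane, ran from 2.52 to 3.67 in 6 healthy cows (median 3.28; no value in healthy cow 7) and from 1.29 to 2.97 in ketotic cows (median 2.13). All ketotic cows but 1 were below every measured healthy cow. MGST1 fell 2.11-fold (log2 SE 0.25, limma adjusted p = 0.0147). MGST3 (gene ID 507346), which has transferase and peroxidase activity, ran from -0.10 to 1.45 in healthy cows (median 1.12) and from -0.77 to 0.60 in ketotic cows (median -0.24).

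MGST3 overlapped between the groups, and fell 1.93-fold (log2 SE 0.28, limma adjusted p = 0.0386). The call was lost in 8 of 14 leave-one-out fits (healthy cows 1, 3, 5 and 6, ketotic cows 3, 5, 6 and 7), with adjusted p up to 0.0790. Without healthy cow 7, the lowest healthy cow, it was -1.11 (adjusted p = 0.00983). MGST2 was measured in 4 healthy cows (-1.79 to 1.60) and 1 ketotic cow (3.66), and was not tested.

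The enzymes that make and restore glutathione gave no call. GSR, glutathione reductase, had the smallest p of the 4: it ran from 0.55 to 1.76 in healthy cows (median 0.96) and from -0.25 to 1.43 in ketotic cows (median 0.71). The groups overlapped over most of their range, and the difference was -0.46 (95% confidence interval -1.02 to 0.10, limma adjusted p = 0.269). GCLC, the catalytic subunit of the first step of glutathione synthesis, differed by -0.22 (interval -0.92 to 0.48), and its modifier subunit GCLM by 0.20 (interval -0.45 to 0.84). GSS, the enzyme of the second step, differed by -0.35 (interval -1.17 to 0.47; 5 ketotic cows). A 2-fold fall lies within the intervals of GSR and GSS and outside those of GCLC and GCLM.

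Glutathione peroxidases were the 1 role whose median difference lay above 0 (0.18), and none of the 4 was called. The sign of that median depends on the centring. With the values as deposited, GPX3 (0.49) lay above 0, and GPX4 (-0.15), GPX8 (-0.29) and GPX1 (-0.82) lay below 0. GPX3, the secreted peroxidase of plasma, ran from 0.42 to 2.25 in healthy cows (median 1.16) and from 1.09 to 3.04 in ketotic cows (median 2.08). The groups overlapped, though the ketotic median was near the highest healthy value. The difference was 0.89 (SE 0.34, limma adjusted p = 0.0987), the highest of the 52 members. It passed when ketotic cow 7 was left out (1.08, adjusted p = 0.0487).

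GPX1, the abundant cytosolic peroxidase, lay the other way. It ran from -0.57 to 0.77 in healthy cows (median 0.35) and from -0.44 to 0.13 in ketotic cows (median -0.14), where the -0.57 was healthy cow 7 and the other healthy cows began at 0.00. Its difference was -0.42 (SE 0.19, limma adjusted p = 0.150), and without healthy cow 7 -0.56 (adjusted p = 0.0138). GPX4, which reduces lipid peroxides within membranes, differed by 0.25 (SE 0.15, adjusted p = 0.276). That sign turned with the values as deposited (-0.15) and with liver in Cy3 alone (-0.05), so no direction is given for GPX4. GPX8 of the endoplasmic reticulum differed by 0.11 (SE 0.24).

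Superoxide dismutases turn superoxide into hydrogen peroxide, and catalase breaks hydrogen peroxide down in peroxisomes. None of the 3 was called with all cows. SOD1, the copper and zinc enzyme of the cytosol, ran from -0.13 to 2.49 in healthy cows (median 2.05) and from 0.22 to 1.37 in ketotic cows (median 0.79). Healthy cow 7 was below every ketotic cow, while the other 6 healthy cows, from 1.59 up, were above every ketotic cow. The difference was -0.88 (SE 0.33, limma adjusted p = 0.0888) with all cows and -1.18 (adjusted p = 0.00161) without healthy cow 7.

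SOD2, the manganese enzyme of mitochondria, ran from 0.41 to 1.63 in healthy cows (median 1.13) and from 0.42 to 1.07 in ketotic cows (median 0.63). Its difference was -0.40 (SE 0.19, limma adjusted p = 0.173) with all cows and -0.52 (adjusted p = 0.0373) without healthy cow 7. SOD2 was the only member with 2 tested probes, and they gave -0.49 (SE 0.24) and -0.32 (SE 0.16). CAT ran from 1.84 to 5.61 in healthy cows (median 4.80) and from 3.81 to 5.03 in ketotic cows (median 4.22). Its difference was -0.20 (SE 0.46, adjusted p = 0.830) and, without healthy cow 7, -0.65 (adjusted p = 0.0733).

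In the KEAP1, HMOX and NQO1 group, NQO1 was the 1 called of 4. NQO1 (gene ID 519632), a quinone reductase and a known NRF2 target, ran from 0.98 to 2.14 in healthy cows (median 1.63) and from 0.31 to 1.34 in ketotic cows (median 0.72). The groups overlapped, with 5 of 7 ketotic cows below every healthy cow. NQO1 fell 1.66-fold (log2 SE 0.22, limma adjusted p = 0.0398). The call was lost in 9 of 14 leave-one-out fits (healthy cows 1, 3, 5 and 6, ketotic cows 2, 4, 5, 6 and 7), with adjusted p up to 0.0814, and with arrays centred on common probes (-0.60, adjusted p = 0.102).

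KEAP1, the adaptor that directs NRF2 to degradation, ran from -0.19 to 0.53 in healthy cows (median 0.18) and from -0.30 to 0.03 in ketotic cows (median -0.08). Its difference was -0.34 (SE 0.13, limma adjusted p = 0.104), and -0.40 (adjusted p = 0.0249) without healthy cow 7, the lowest healthy cow. HMOX1, the inducible haem oxygenase, ran from 0.32 to 2.14 in healthy cows (median 0.87) and from -0.19 to 1.08 in ketotic cows (median 0.48). The 2.14 was healthy cow 7 and the next healthy value was 1.03. The difference of HMOX1 was -0.57 (SE 0.27, adjusted p = 0.174), and -0.37 (adjusted p = 0.234) without that cow. HMOX2, the constitutive form, differed by 0.08 (interval -0.28 to 0.44).

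FTH1 (gene ID 281173), the ferritin heavy chain that oxidises and stores iron, ran from 0.74 to 1.66 in healthy cows (median 1.21) and from -0.49 to 0.50 in ketotic cows (median 0.21). The groups were apart, and FTH1 fell 2.15-fold (log2 SE 0.19, limma adjusted p = 0.00314). Ferritin heavy chain has many processed copies in mammalian genomes, so the transcripts its probe reads are uncertain. MT2A, a metal-binding metallothionein, ran from 0.41 to 1.28 in healthy cows (median 0.92) and from 0.76 to 1.32 in ketotic cows (median 1.11), and differed by 0.13 (interval -0.22 to 0.48).

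Selenoproteins carry selenocysteine. SELENOW (gene ID 523694), a small cytosolic protein with a thioredoxin fold, ran from -0.71 to -0.06 in healthy cows (median -0.32) and from -1.40 to -0.61 in ketotic cows (median -1.22). Only ketotic cow 1 reached the healthy range. SELENOW fell 1.70-fold (log2 SE 0.15, limma adjusted p = 0.00638). SELENOF (gene ID 614360), which takes part in glycoprotein folding control in the endoplasmic reticulum, ran from -1.49 to -0.28 in healthy cows (median -0.45) and from -2.96 to -1.12 in ketotic cows (median -1.72).

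The SELENOF value of -1.49 was that of healthy cow 7, and the other healthy cows, from -0.65 up, were above every ketotic cow. SELENOF fell 2.34-fold (log2 SE 0.25, limma adjusted p = 0.00780), and by 1.38 on the log2 scale without healthy cow 7. It was the 1 member called when liver in Cy5 was used alone. The other 8 genes of this role had differences between -0.70 and 0.13, and none was called. They were SELENOK, SELENOS, SELENON, SELENOM, SELENOH, MSRA, MSRB2 and MSRB3, of which the MSR enzymes repair oxidised methionine. SELENOK and SELENOS, membrane proteins of the endoplasmic reticulum linked to degradation of misfolded proteins, had differences of -0.70 (SE 0.29, adjusted p = 0.126) and -0.54 (SE 0.27, adjusted p = 0.201).

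The 15 genes that fell can also be read cow by cow. Each ketotic cow had 14 or 15 of them measured, and all those measured were below the healthy mean in 7 of 7 ketotic cows, a direction the choice of called genes favours. Between 10 and 15 of them were below the lowest of healthy cows 1 to 6, with the 10 in ketotic cow 1. The choice of called genes favours this count too, as does leaving out healthy cow 7. The same count over all genes was not computed. Ketotic cow 5 held the lowest ketotic value for 11 of the 15, and ketotic cow 1 the highest for 9. Over all 52 tested members, the median deviation from the healthy mean ran from -0.72 (ketotic cow 5) to -0.21 (ketotic cow 1) in ketotic cows, from -0.05 to 0.25 in healthy cows 1 to 6, and was -0.51 in healthy cow 7. Over all genes it ran from -0.41 to -0.08 in ketotic and from -0.04 to 0.04 in healthy cows.

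**Figure D3:**
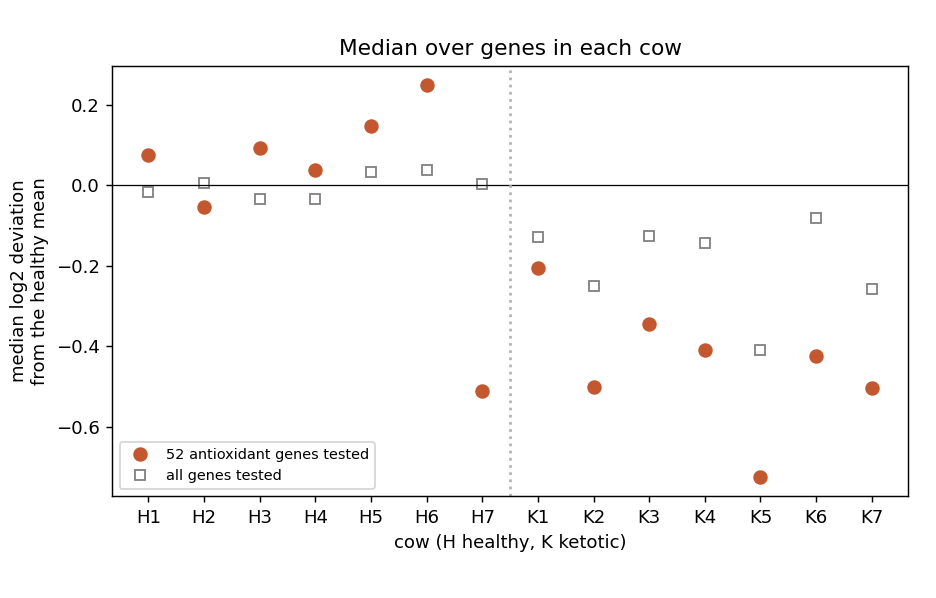
Median log2 deviation from the healthy mean in each cow, over the 52 tested antioxidant and glutathione genes (orange circles) and over all genes tested (open squares). The 7 ketotic cows lie between -0.72 and -0.21 for the antioxidant genes, and healthy cow 7 (-0.51) lies among them while its median over all genes does not.

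Measures of the arrays moved with the groups. The share of spots without a ratio was 11.9% ± 2.80 (SD, n = 7) in healthy and 16.5% ± 4.49 (SD, n = 7) in ketotic cows, and was highest, at 25.0%, in ketotic cow 5. The spread of log2 ratios (median absolute deviation) was 0.756 ± 0.0865 (SD, n = 7) in healthy and 0.941 ± 0.124 (SD, n = 7) in ketotic cows. When each cow's percentage of spots without a ratio was added to the limma fit, 6 of the 52 members were called lower (11.5%), beside 2.3% of all genes. They were PRDX5, FTH1, GLRX3, TXNL4A, SELENOW and GSTA4. With arrays scaled to one spread, 12 of the 52 members were called lower (23.1%), beside 7.4% of all genes, and PRDX4, TXN, PRDX2 and GLRX5 of the 15 were lost. Other settings also ended calls among the 15: GLRX, GLRX5, MGST3 and NQO1 with arrays centred on common probes, TXN and GLRX5 with quantile normalisation, and TXNL4A, MGST1, GLRX, GLRX5, MGST3 and NQO1 with liver in Cy3 alone. With liver in Cy5 alone only SELENOF of the 15 stayed called, and 0.144% of all genes were called lower. MGST1, GLRX5, MGST3 and NQO1 were lost where 1 array per cow was enough, PRDX2 with limma's trend and robust options, and GLRX5 with weights per cow. In 477 of 477 values that the 15 genes took in 32 alternative fits, the difference was below 0. The 15 were chosen for falling and the fits reuse the same cows, so this direction was favoured and the values are not independent.

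Of the 14 cows left out in turn, healthy cow 7 moved the members' count of calls most. Of the 50 tested members with a value in that cow, 29 lay below and 8 above all of healthy cows 1 to 6. Without it, 25 of the 52 members were called lower and 0 higher, beside 19.9% of all genes called in either direction, 18.4% lower and 1.5% higher. The median difference was then -0.60, and 44 of the 52 lay below 0, beside 68.1% of all genes. All 15 genes stayed called, and 10 more passed: GLRX2, TXN2, SOD1, SOD2, GPX1, GSTM3, KEAP1, SELENOK, SELENOS and MSRB3, some of them named after their values were seen. Of these 10, healthy cow 7 was the lowest healthy cow for 9. In 13 members every ketotic cow was below each of healthy cows 1 to 6, beside 8.59% of all genes, with GLRX2, SOD1, KEAP1 and SELENOS added and 9 of the 15 among them.

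**Figure D4:**
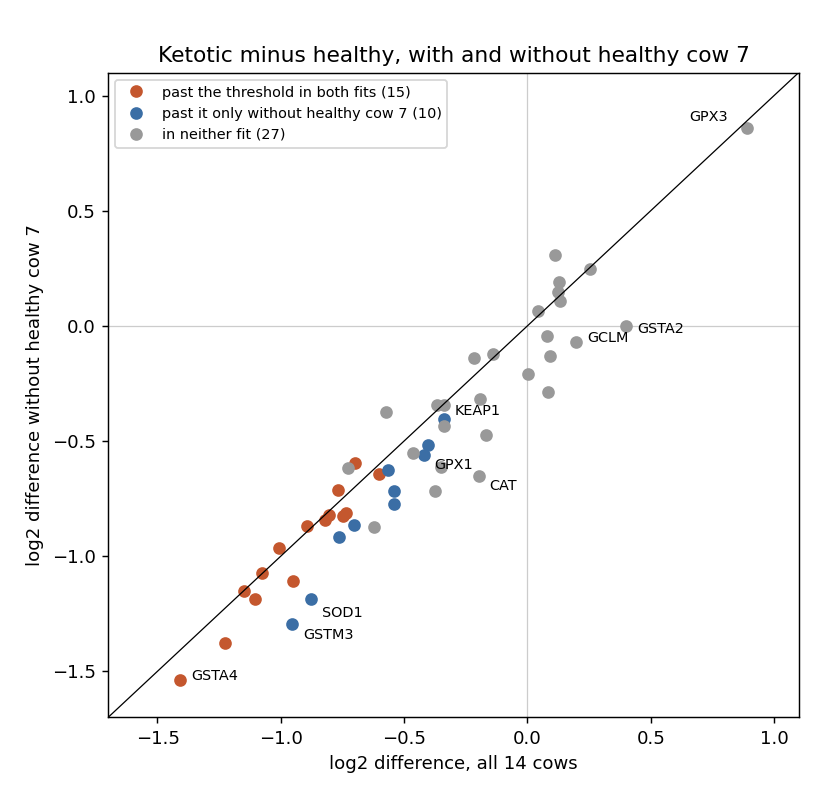
Log2 difference (ketotic minus healthy) of the 52 members with all 14 cows (horizontal) and without healthy cow 7 (vertical). The diagonal marks equal values; 15 genes (orange) passed the adjusted p threshold of 0.05 in both fits, 10 (blue) only without that cow, and 27 (grey) in neither, and SOD1, GSTM3 and CAT lie below the diagonal.

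Genes that supply or surround these enzymes were taken from 7 further lists, none of which held a gene called higher with all cows. Of 11 genes of NADPH supply, 3 fell (27.3%, beside 12.4% of all genes). They were PGD (2.10-fold, limma adjusted p = 0.00732) and TKT (1.77-fold, adjusted p = 0.0227) of the pentose phosphate pathway, and NNT (1.66-fold, adjusted p = 0.0231), the mitochondrial transhydrogenase that makes NADPH. PGD ran from -1.88 to -0.68 in healthy cows (median -1.55) and from -3.47 to -2.12 in ketotic cows (median -2.46), with no overlap. The median difference of the list was -0.38.

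Of 23 genes of glutathione supply and turnover, 3 fell, close to the share of all genes. ADH5, which clears the glutathione adduct of formaldehyde, fell 2.74-fold (limma adjusted p = 0.00719), and ESD, the next enzyme of that route, fell 2.45-fold (adjusted p = 0.0173). PRXL2B, a peroxiredoxin-like protein, fell 1.65-fold (adjusted p = 0.0109). ADH5 ran from 0.04 to 1.23 in healthy cows (median 1.11) and from -1.93 to 0.18 in ketotic cows (median -0.51). Healthy cow 7 held the 0.04, and the other healthy cows were above every ketotic cow.

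Disulfide isomerases and other thioredoxin-fold proteins, mostly of the endoplasmic reticulum, gave 6 falls among 18 genes (33.3%), with a list median of -0.63. The 4 with the smallest p were TMX2 (2.42-fold, limma adjusted p = 0.00250), PDIA5 (2.40-fold, adjusted p = 0.00847), QSOX1 (1.92-fold, adjusted p = 0.0120) and ERP44 (2.28-fold, adjusted p = 0.0120). TMX2 ran from -0.62 to 0.19 in healthy cows (median -0.23) and from -1.97 to -0.92 in ketotic cows (median -1.26), with no overlap. Without healthy cow 7, 10 of the 18 were lower and 1, TMX3, was higher.

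Of 17 genes of oxidant sources and detoxifying partners, 4 fell (23.5%): PON2, a lactonase of cell membranes (1.97-fold, limma adjusted p = 0.00250), AKR1A1, an aldehyde reductase (2.23-fold, adjusted p = 0.00517), CYB5R3 (1.93-fold, adjusted p = 0.00534) and CYBA, a subunit of NADPH oxidases (1.64-fold, adjusted p = 0.0239). Of 19 genes of haem and iron handling, 2 fell (10.5%, below the 12.4% of all genes): PCBP2, known also as an iron chaperone that loads ferritin (1.60-fold, adjusted p = 0.00523), and BLVRB, a biliverdin reductase (1.56-fold, adjusted p = 0.0472). The 8 measured regulators and partners of NRF2 gave 0 calls with all cows, and the smallest p was that of NFE2L1 (-0.41, adjusted p = 0.0760). Without healthy cow 7, 1 of the 8, PARK7, was lower (-0.71, limma adjusted p = 0.00755), beside 18.4% of all genes. NFE2L2, which encodes NRF2, is not analysed here. The 2 measured genes of selenoprotein synthesis gave 0 calls, with SEPHS2 at -0.31 (adjusted p = 0.414).

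Markers of liver cell types moved in part. Of 7 hepatocyte markers, 2 were higher in ketotic liver (ALB and APOA1) and 0 lower. Of 5 macrophage markers, 3 were lower (CD74, LAPTM5 and AIF1). The mean of the macrophage markers with a value ran from 0.18 to 2.38 in healthy cows (1.30 to 2.38 without healthy cow 7) and from 0.53 to 1.35 in ketotic cows. The 0.18 was healthy cow 7, which had no value for AIF1. AIF1 ran from 3.32 to 4.47 in the other healthy cows, so the mean of healthy cow 7 cannot be set beside theirs. Of 4 bile duct markers 1 was lower (KRT8), and of 5 stellate cell markers 0 were. Without healthy cow 7, EPCAM of bile duct (-0.37, limma adjusted p = 0.0490), DCN of stellate cells (-0.61, adjusted p = 0.0409) and APOB of hepatocytes (-1.44, adjusted p = 0.0412) were lower as well. Of 3 neutrophil markers 1 was higher (MMP9), and of 2 lymphocyte markers CD79B was higher and GNLY lower. The part of these cells in the falls of the antioxidant genes was not tested.

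**Figure D5:**
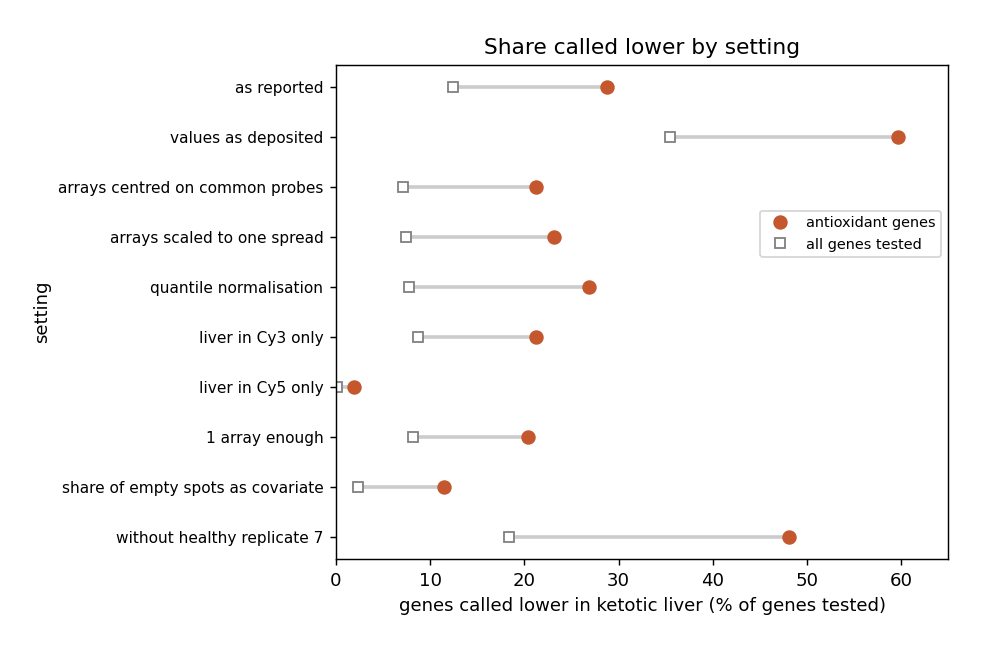
Share of genes called lower in ketotic liver (percent of genes tested) under 10 settings, for the antioxidant and glutathione genes (orange) and all genes tested (open squares). The share of antioxidant genes is 28.8% as reported, against 12.4% of all genes. When liver in Cy5 is used alone, it falls to 1.89%, against 0.144% of all genes.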

How the data were processed

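Each spot has 1 deposited log2 ratio of its 2 channels. How the authors computed and normalised it: not given in the sources used here. Arrays were turned to liver over reference by the dye in the title (the dye labels of 1 ketotic array name Cy5 for both channels). Values at the ceiling of 16.61 and empty cells were read as missing. The 27648 spots were averaged to 13824 probes, more than the 13257 elements of the design text, and each array was centred on its median. A cow's value is the mean of both arrays, a gene's the mean of its probes. Gene symbols came from the platform annotation, updated with the RefSeq table. Genes with values in at least 5 cows per group were fitted with limma 3.58.1 in R 4.3.3 (lmFit, eBayes), and p-values were adjusted over all 6958 genes at 0.05. The fit was tested on simulated data. Figures used matplotlib 3.10.9.

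Members, roles and lists were chosen with earlier results of these data known. Named were every member past the threshold, the smallest p in roles without one, 14 central genes wherever measured, untested members, and up to 4 genes per further list. Alternatives covered scaling, dyes, filters, weights, the share of empty spots and each cow left out; 3 were added after seeing the data. The labels give no sampling day per cow. No sequences are printed.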

Additional observations from a re-analysis of the deposited data

Results flagged for a closer look

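Groups of 5 to 7 values were searched (each tested member in each group of cows, and array measures). Of 110 such groups, 21 held a cow far from the others by Dixon's test at the 95% level, where chance gives about 1 in 20, or 5.5. Of the 21, 14 were healthy cow 7, the library that stood apart.

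Healthy cow 7 was low for 12 members. Its log2 ratio was 2.85 for GSTA2 (next healthy cow 5.42), -0.50 for GSTK1 (1.91), 1.77 for GSTM3 (3.62), -0.24 for GCLM (1.47), 1.84 for CAT (4.59) and -0.13 for SOD1 (1.59). It was -0.49 for MSRB3 (0.90), -1.93 for TXNL1 (0.09), -1.29 for TXNRD2 (-0.19), -0.73 for HMOX2 (-0.03), -1.22 for GLRX2 (-0.42) and -1.49 for SELENOF (-0.65). For HMOX1 it was high, at 2.14 (1.03). Its median correlation with the other healthy cows was 0.408, beside 0.870 for the next cow.

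Ketotic cow 5, the cow with the most spots without a ratio, was low for PRDX2 (-5.60, next ketotic cow -4.02), GLRX2 (-2.36, next -1.14) and SELENOF (-2.96, next -1.85). The remaining 4 values were TXN2 in healthy cow 6 (1.44, next 0.63), SELENOW in ketotic cow 1 (-0.61, next -1.06), MSRB3 in ketotic cow 3 (-0.90, next 0.34) and SELENON in ketotic cow 4 (-1.74, next -0.80). The causes were not tested.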

How the results depend on the processing

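Members called lower numbered 15 of 52 as reported. Values as deposited gave 31 (2477 genes called in all), liver in Cy5 alone 1 (12 genes), the percentage of empty spots in the fit 6 (168 genes), and one spread without healthy cow 7, added after seeing the data, 31 (30 lower and 1 higher, GPX8; 1466 genes). Against 929 genes called as reported, common-probe centring gave 616, one spread 550, quantile normalisation 562 and weights per cow 1409. Leaving out 1 cow gave 12 to 25 members and 652 to 1368 genes, both highest without healthy cow 7. Common-probe centring gave 493 genes lower and 123 higher, beside 865 and 64, and 11 members lower; without healthy cow 7 as well it gave 774 and 234, and 17 members lower. The median of all genes was -0.58 as deposited and -0.05 with common probes, so the size of each fall depends on the centring. Of the 15 genes, 15 were below 0 with each dye, which their choice on the mean of both favours. Of the 52 members, 43 had the same sign with both.

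Over 32 alternative fits, 63 of 1649 member values had the opposite sign to the reported one, in 16 members. Of these, 54 belonged to members whose reported difference was within 1 SE of 0, and were not called there, 10 of them with values as deposited and 5 without healthy cow 7. The other 9, past 1 SE or called, were: GPX4, -0.15 as deposited and -0.047 with Cy3 alone; GSTA2, -0.75 with one spread, -0.078 with quantile normalisation, -0.066 with the percentage of empty spots, and -1.12 with one spread and no healthy cow 7; MSRB2, 1.35 with ceiling values kept; GSTK1, -0.64, and GSTT1, -0.78, with one spread and no healthy cow 7. No paired analysis was possible because the labels give no cow numbers shared between the groups. Signal over background is not known, so dim spots could not be set aside.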
